A study of Mus musculus with 141 samples.

Results

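The BXD strains are recombinant inbred mice derived from C57BL/6J and DBA/2J, and their gene expression in inguinal white adipose tissue (iWAT) was compared with that of classical inbred strains, which are not recombinants of a single pair of parents. Members were taken from the strain named in each title: libraries of strains whose name starts with BXD formed the first group, and libraries of strains that belong to none of the BXD, AXB, BXA, BXH and CXB sets formed the second. The series holds 67 female and 74 male libraries of 82 strains, and 51 of the former and 56 of the latter, from 62 strains, were members. The BXD group held 64 libraries (30 females and 34 males) of 38 strains, and the classical group held 43 libraries (21 females and 22 males) of 24 strains. The remaining 31 libraries of AXB/BXA, BXH and CXB strains were not in the test, and 3 further libraries were left out.

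All mice came from the Hybrid Mouse Diversity Panel (HMDP), ate chow until 8 weeks of age and then an HF/HS diet, rich in fat and sucrose, for 8 weeks, and were fasted for 4 h before the tissue was taken. No gene was altered in any group by design, so the groups differ in the natural alleles of their strains. The BXD strains comprised 15 of the older series with the suffix TyJ (20 libraries) and 23 of the newer series with the suffix RwwJ (44 libraries). BXD24/TyJ-Cep290<rd16>/J carries a spontaneous Cep290 mutation that its name states. The classical strains were 129X1/SvJ, A/J, AKR/J, BALB/cJ, BTBR T<+> tf/J, C3H/HeJ, C57BL/6J, C57BLKS/J, CBA/J, CE/J, DBA/2J, FVB/NJ, I/LnJ, KK/HlJ, LP/J, MA/MyJ, NOD/ShiLtJ, NZB/BlNJ, NZW/LacJ, PL/J, SEA/GnJ, SJL/J, SM/J and SWR/J. Both parents of the BXD strains were thus in the classical group. A strain had at most 1 library per sex, both sexes were present in 26 BXD and 19 classical strains, and each library carried a single mouse number.

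In a recombinant inbred panel the offspring of a cross are mated brother to sister until each line is homozygous. At any place in the nuclear genome a BXD strain therefore holds the C57BL/6J or the DBA/2J allele, in a different mosaic in each line, while the mitochondrial genome passes through the mother only. A gene at which the parents carry the same allele is the same in all BXD lines, and a gene at which they differ can split the lines into 2 classes. The classical strains carry these and further haplotypes.

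Estimated counts per library lay between 12057790 and 46602605, with 30175146 at the median, where 3 counts are worth 0.0994 CPM. In the library with the lowest total they are worth 0.249 CPM, and 3 counts served as the limit of detection. These limits cover counting error only. Neither total counts nor the share of mitochondrially encoded genes differed between the panels beyond the spread between strains (two-sided permutation tests within each sex, adjusted p = 0.93 for all 4). Adipocyte markers were abundant in both panels, with a summed level of 8080 to 51410 CPM in the BXD libraries and 7581 to 41633 CPM in the classical libraries. Among the libraries, 3 stood apart: the BXD79/RwwJ female in skeletal muscle genes, and the BXD27/TyJ female and the PL/J male in reads of processed pseudogenes (10.8% and 5.97% of counts).

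Expression is given as CPM of a strain, with its female and male library summed where both exist, and log2FC is BXD minus classical. Strains were the replicates in edgeR's quasi-likelihood test of the panel difference, with the share of female counts as a covariate, and genes with a Benjamini-Hochberg adjusted p under 0.05 over all genes tested were called. Of 18285 genes, 581 (3.18%) were higher and 754 (4.12%) lower in the BXD strains, which is 7.3% in all. The differences were mostly small. The median log2FC was 0.39 over the genes called higher and -0.53 over those called lower, and 84 of the former (14.5%) and 193 of the latter (25.6%) differed by at least 1 on the log2 scale. In no gene were the values of the 2 panels fully apart. Both parents of the BXD strains were in the classical group, so the design favoured such overlap in advance. Of the genes called lower, 92.4% had a classical strain above every BXD strain, against 45.6% of all genes tested, and of those called higher, 82.8% had a classical strain below every BXD strain, against 42.6%. The share of calls that were higher was 43.5%, and it fell to 31.1% with library totals in place of TMM scaling, 31.3% without a filter on low counts, 26.9% on log2(TPM + 1) and 31.9% on log2(TPM + 0.1).

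At some genes the BXD strains and both of their parents shared a narrow range that most other classical strains lay outside. *Nudcd3*, which encodes a co-chaperone of dynein, was at 55.7, 64.1 and 73.4 CPM in the lowest, median and highest BXD strain and at 60.5, 85.5 and 108.9 CPM in the classical strains. In 19 of 24 classical strains it lay above all 38 BXD strains, while C57BL/6J (67.8 CPM) and DBA/2J (60.7 CPM) lay inside the BXD range. Its log2FC was -0.37 ± 0.04 (SE; edgeR quasi-likelihood test, adjusted p = 3.25e-09). *Gpatch11*, a protein with a G-patch domain, followed the same pattern, with 18.6, 22 and 27.7 CPM in the BXD strains, 18.7, 32.8 and 39.7 CPM in the classical strains and 19 classical strains above all BXD strains. Here too the parents were inside the BXD range, with 20.7 CPM in C57BL/6J and 21.5 CPM in DBA/2J. The log2FC of *Gpatch11* was -0.46 ± 0.06 (SE; edgeR, adjusted p = 4.14e-08).

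Other genes were higher in the BXD strains, with ranges that overlapped in part. *Sfxn2*, a sideroflexin of the inner mitochondrial membrane, was at 16.4, 20.2 and 32.8 CPM in the lowest, median and highest BXD strain and at 7.63, 11.3 and 26.8 CPM in the classical strains. All BXD strains were above 18 of the 24 classical strains, C57BL/6J was at 24.3 CPM, and DBA/2J, at 16.3 CPM, was just under the lowest BXD strain. The log2FC was 0.68 ± 0.10 (SE; edgeR, adjusted p = 1.74e-06). *Hmgb1*, a chromatin protein that also acts as an alarm signal outside cells, ranged from 222 over a median of 311 to 373 CPM in the BXD strains and from 172 over 229 to 326 CPM in the classical strains, with 10 classical strains below all BXD strains and 11 BXD strains above all classical strains. C57BL/6J (247 CPM) and DBA/2J (268 CPM) were both under the BXD median. Its log2FC was 0.38 ± 0.05 (SE; edgeR, adjusted p = 1.09e-06). *Pop4*, a subunit of RNase P, was at 13, 23.9 and 32 CPM in the BXD strains and at 10.9, 14 and 26.3 CPM in the classical strains, with a log2FC of 0.58 ± 0.08 (SE; edgeR, adjusted p = 3.43e-07), and both parents (22 and 25.4 CPM) lay above the classical median. *Plac9b* was at 5.16, 19.4 and 38.5 CPM in the BXD strains and at 3.22, 6.37 and 20.4 CPM in the classical strains, among which C57BL/6J was the highest. Its log2FC was 1.42 ± 0.18 (SE; edgeR, adjusted p = 7.22e-08), and it is near-identical to *Plac9a* (96.6% of its 31-base stretches are shared). Its group of 3 copies was therefore also summed, which gave a log2FC of 1.44 (edgeR, adjusted p = 3.86e-08).

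**Figure D1:**
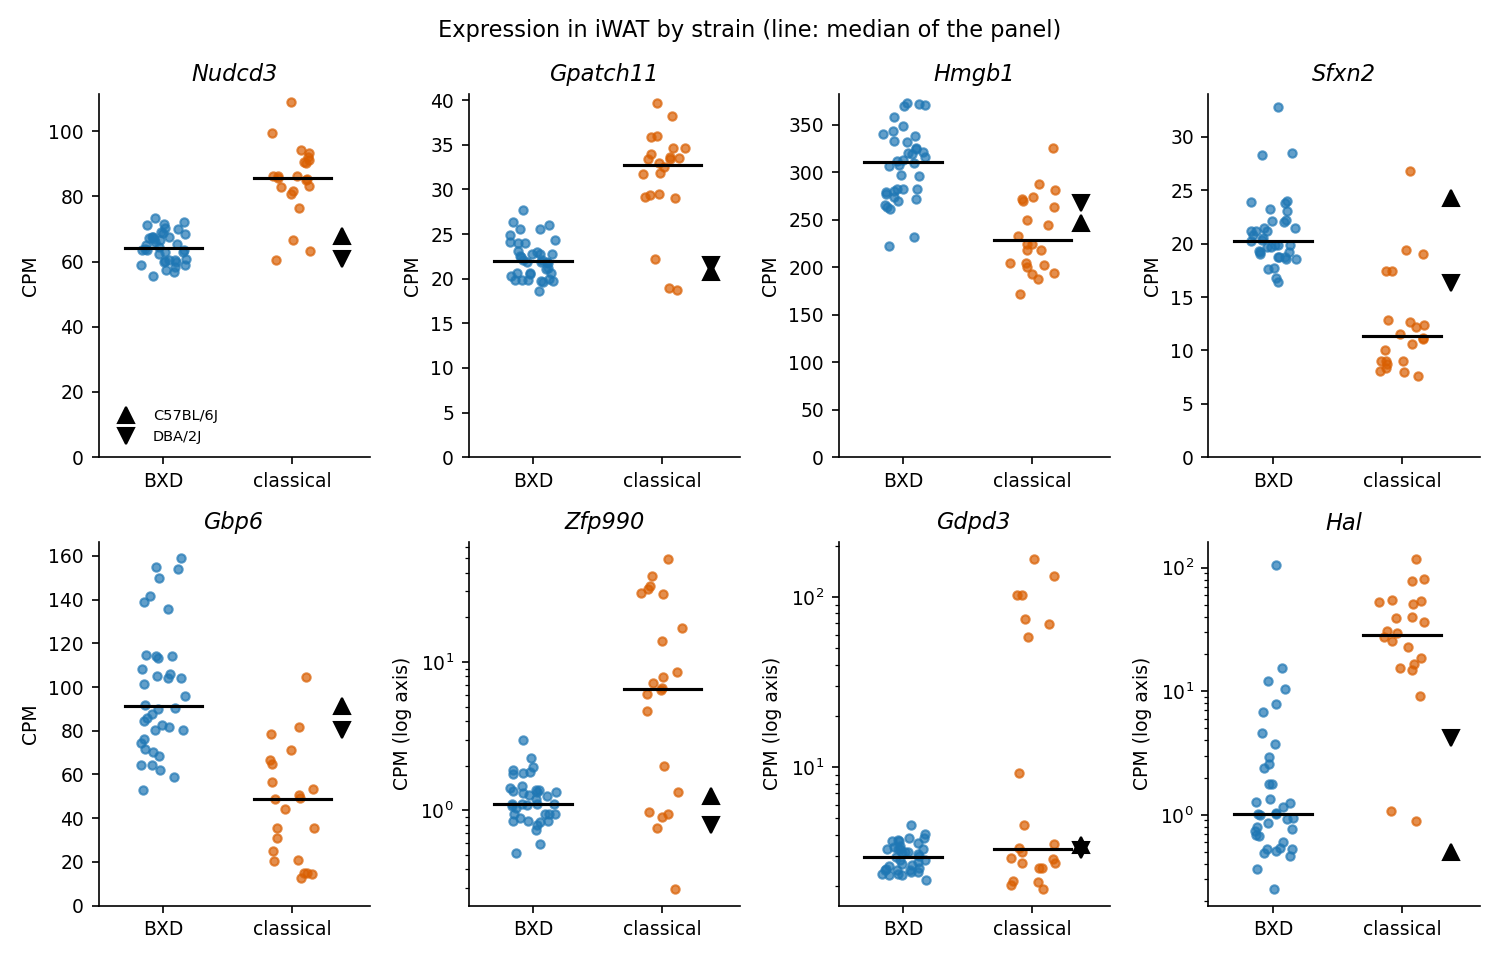
CPM of 8 genes in each of the 38 BXD strains (blue) and 24 classical strains (orange), 1 point per strain, with the panel median as a line and the parents C57BL/6J and DBA/2J as black triangles beside the classical strains; the axes of Zfp990, Gdpd3 and Hal are logarithmic. For Nudcd3 and Gpatch11, 19 of 24 classical strains lie above every BXD strain, and for Gdpd3 the panel medians are close while 7 classical strains lie between 57.9 and 168 CPM.

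A different pattern was a low level in all BXD strains and a high level in only some classical strains. *Gdpd3*, a lysophospholipase D, was at 2.16, 2.97 and 4.56 CPM in the lowest, median and highest BXD strain. In the classical strains the median was 3.31 CPM, but 129X1/SvJ, FVB/NJ, I/LnJ, KK/HlJ, LP/J, MA/MyJ and SM/J had 57.9 to 168 CPM, while the other 17 had 1.92 to 9.26 CPM. The log2FC of -3.28 ± 0.41 (SE; edgeR, adjusted p = 6.66e-08) compares means, while the medians of the panels were close. *Zfp990*, a zinc finger gene of a repeated family on chromosome 4, was at 0.516, 1.11 and 2.96 CPM in the BXD strains and at 0.294, 6.59 and 49.9 CPM in the classical strains, 15 of which lay above all BXD strains. The 8 classical strains above 10 CPM were BTBR T<+> tf/J, C3H/HeJ, LP/J, MA/MyJ, NOD/ShiLtJ, PL/J, SJL/J and SWR/J, and the parents were at 1.24 and 0.793 CPM. Its log2FC was -3.33 ± 0.34 (SE; edgeR, adjusted p = 1.35e-10), and it shares 49.1% of its 31-base stretches with other genes, mostly *Zfp988*, so reads may be split among them.

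*Hal*, histidine ammonia-lyase, which starts the breakdown of histidine, was at 0.25, 1.02 and 105.96 CPM in the lowest, median and highest BXD strain and at 0.496, 28.5 and 118.6 CPM in the classical strains. It exceeded 10 CPM in 4 of 38 BXD strains (BXD6/TyJ, BXD8/TyJ, BXD11/TyJ and BXD24/TyJ-Cep290<rd16>/J) and in 19 of 24 classical strains, and it was low in both parents, at 0.496 CPM in C57BL/6J and 4.17 CPM in DBA/2J. The log2FC was -3.02 ± 0.51 (SE; edgeR, adjusted p = 4.23e-05). *Aass*, which carries out the first steps of lysine breakdown, had nearly equal medians of 1.54 CPM in the BXD strains and 1.7 CPM in the classical strains. All BXD strains were at or below 7.81 CPM, while MA/MyJ, PL/J and SJL/J had 14.3 to 148.2 CPM. The log2FC, a comparison of means, was -2.68 ± 0.47 (SE; edgeR, adjusted p = 7.92e-05). *Abhd1*, chosen after its values were seen because it had the smallest p among the genes described here, was at 2.09, 2.82 and 4.39 CPM in the BXD strains and above 10 CPM, at 12 to 37.2 CPM, in 20 of 24 classical strains. The other 4 classical strains, both parents among them (3.42 and 3.55 CPM), had 2.05 to 3.55 CPM, and the log2FC was -2.70 ± 0.16 (SE; edgeR, adjusted p = 2.2e-20). *Abhd1* overlaps *Preb* and shares 75.9% of its 31-base stretches with other transcripts, while *Preb* itself had medians of 58 and 59.8 CPM and was not called (log2FC -0.00 ± 0.03, SE; edgeR, adjusted p = 0.96). The sum of *Preb* and *Abhd1* had medians of 61.1 CPM in the BXD and 79.1 CPM in the classical strains. Tested as summed copies, it was called lower (log2FC -0.33 ± 0.04, SE; edgeR, adjusted p = 1.22e-08).

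Several of the genes with the largest calls differ between near-identical copies, whose reads the quantification can assign to one or the other. *Ftl1*, the ferritin light chain that stores iron, and *Ftl1-ps1* differ in 2 of 552 coding bases, and *mt-Nd3*, a mitochondrially encoded subunit of complex I, and *Gm28438*, a nuclear copy of it, differ in 1 of the 345 bases aligned. The stretches of 60 bases that hold the differing bases, in capitals, are given 5′ to 3′ from the GENCODE M21 transcripts of GRCm38, whose reference genome is that of C57BL/6J. The *Ftl1* stretch lies within 1 coding exon at chr7:45458155-45458214 on the minus strand, and that of *Ftl1-ps1* within 1 exon at chr13:74407048-74407107 on the plus strand. The *mt-Nd3* stretch is the start of the coding sequence at chrM:9459-9518 on the plus strand, and that of *Gm28438* lies at chr1:24613060-24613119 on the minus strand.
Ftl1: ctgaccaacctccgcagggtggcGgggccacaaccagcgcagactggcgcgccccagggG
Ftl1-ps1: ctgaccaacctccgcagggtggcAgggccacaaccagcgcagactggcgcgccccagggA
mt-Nd3: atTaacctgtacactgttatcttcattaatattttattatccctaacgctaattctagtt
Gm28438: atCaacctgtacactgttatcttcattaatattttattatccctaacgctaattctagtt

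*Ftl1-ps1* had the smallest log2FC of the genes named, -4.37 ± 0.62 (SE; edgeR, adjusted p = 8.71e-07), with 0.332, 4.18 and 14.1 CPM in the lowest, median and highest BXD strain and 1.14, 6.2 and 584 CPM in the classical strains. *Ftl1* itself was at 452, 731 and 1418 CPM in the BXD strains and at 15.7, 793 and 1235 CPM in the classical strains (log2FC 0.14 ± 0.24, SE; edgeR, adjusted p = 0.763). In I/LnJ, 129X1/SvJ, NZW/LacJ and SJL/J the order of the copies was reversed, with 15.7 to 21.7 CPM of *Ftl1* and 341 to 584 CPM of *Ftl1-ps1*. The other 20 classical strains had 541 to 1235 CPM of *Ftl1* and 1.14 to 10.5 CPM of *Ftl1-ps1*, and no BXD strain had more of the copy than of *Ftl1*. The sum of both was 463, 735 and 1419 CPM in the BXD strains and 357, 797 and 1245 CPM in the classical strains. Summed copies were tested as a group of 5 near-identical genes that includes *Ftl1-ps1*, and this group was not called (log2FC -0.09 ± 0.09, SE; edgeR, adjusted p = 0.537).

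*mt-Nd3* was at 63, 673 and 2017 CPM in the lowest, median and highest BXD strain and at 86, 242 and 806 CPM in the classical strains, where C57BL/6J was the highest (log2FC 1.5 ± 0.21, SE; edgeR, adjusted p = 9.54e-07). *Gm28438* went the other way, at 0, 36.4 and 1725 CPM in the BXD strains and 1.88, 551 and 1023 CPM in the classical strains (log2FC -2.04 ± 0.64, SE; edgeR, adjusted p = 0.0374). More of the nuclear copy than of *mt-Nd3* was assigned in 3 of 38 BXD and 22 of 24 classical strains, DBA/2J among the latter (527 against 284 CPM). *Gm28438* was under 10 CPM in 16 BXD strains, in all 4 BXH strains and, of the classical strains, in C57BL/6J alone. The sum of the pair was 341, 827 and 2332 CPM in the BXD strains and 387, 809 and 1541 CPM in the classical strains, and it was not called (log2FC 0.14 ± 0.15, SE; edgeR, adjusted p = 0.597). The other 12 mitochondrially encoded genes were not called.

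**Figure D2:**
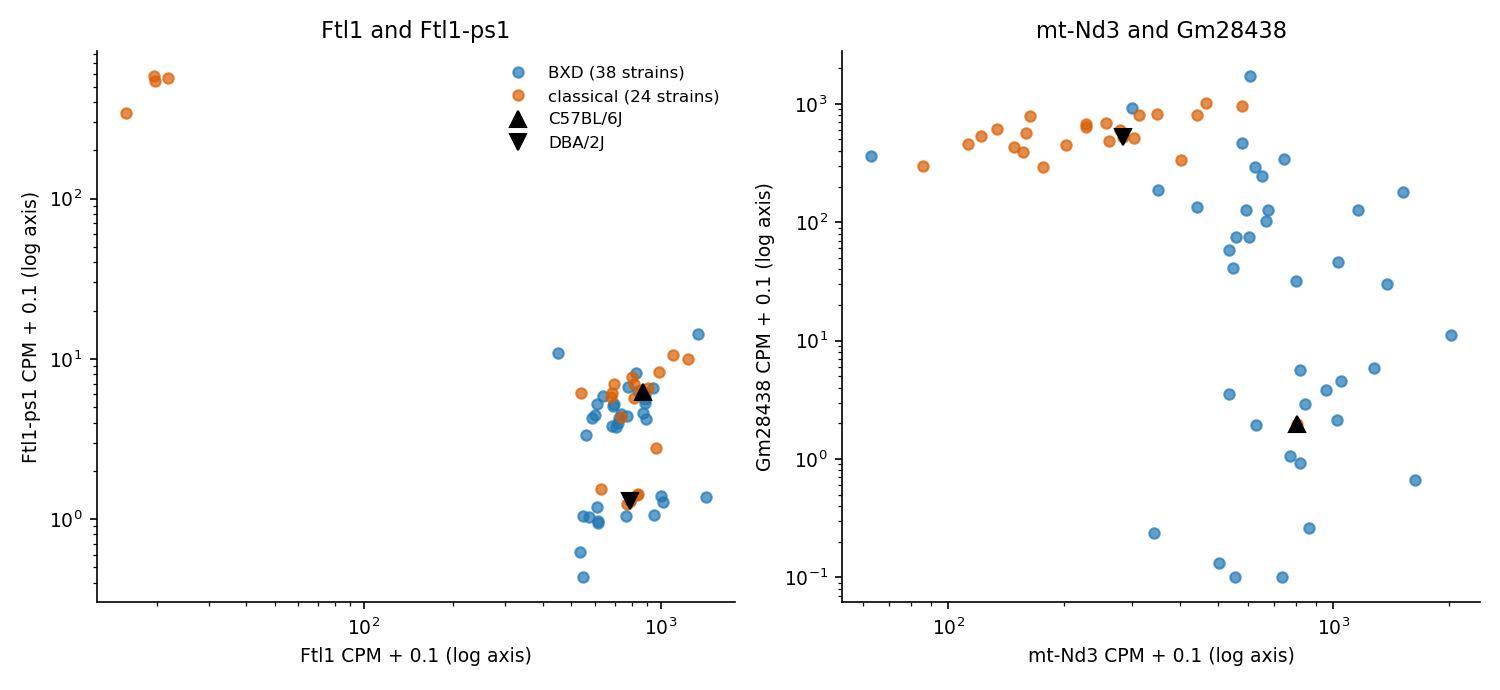
CPM + 0.1 of Ftl1 against Ftl1-ps1 (left) and of mt-Nd3 against Gm28438 (right) in each strain, on logarithmic axes, with BXD strains in blue, classical strains in orange and the parents as black triangles. For the ferritin pair 4 classical strains form a group of their own with 341 to 584 CPM of the copy; for mt-Nd3 the classical strains other than C57BL/6J lie together at the top while the BXD strains spread from there down to a listed 0 of Gm28438.

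Over all genes, 11.2% of those that share more than 50% of their 31-base stretches with another gene were called, against 7.34% of genes that share none. Of the 161 called genes with such sharing, 87 were in a group of copies that was called after summing, in a fit with 7.04% of genes called. *Ndufs5*, a complex I subunit, lost its call, with a log2FC of 0.51 ± 0.13 (SE; edgeR, adjusted p = 0.00674) alone and 0.14 (edgeR, adjusted p = 0.341) with its copies. *Gbp6*, an interferon-induced GTPase, kept it with a smaller value, 1 ± 0.17 (SE; edgeR, adjusted p = 3.26e-05) alone and 0.47 (edgeR, adjusted p = 0.0234) with its copies. The nicotinamide nucleotide transhydrogenase gene *Nnt*, in which C57BL/6J carries a known deletion, is listed under a pair of identifiers, and their sum was called lower in the BXD strains (log2FC -0.55, edgeR, adjusted p = 0.000363). C57BL/6J and DBA/2J were at 7.89 and 10.5 CPM for ENSMUSG00000116207 and at 9.5 and 8.03 CPM for ENSMUSG00000025453. The latter was not called by itself (log2FC -0.15 ± 0.15, SE; edgeR, adjusted p = 0.591). The part of the deletion in the difference was not tested.

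Where the parents differ, the BXD strains could fall into classes. *H2-Ea-ps*, the class II histocompatibility gene for the E alpha chain, which is not expressed from the C57BL/6J haplotype, was at 0.0531 CPM in C57BL/6J and 277 CPM in DBA/2J. In the BXD strains it was at or under 2.44 CPM in 21 and between 124.1 and 530 CPM in 17, with none between. The classical strains held 7 at or under 0.717 CPM and 17 at 13.9 CPM or more, and the panel difference was not called (log2FC -0.01 ± 0.88, SE; edgeR, adjusted p = 0.997). *Gpnmb*, a glycoprotein of lipid-laden macrophages in which DBA/2J carries a known nonsense allele, was at 63.5 CPM in C57BL/6J and 8.49 CPM in DBA/2J, and at 0.688, 31.8 and 737 CPM in the BXD strains. It reached below all classical strains in 9 BXD strains, and the panel difference was not called (log2FC -0.83 ± 0.51, SE; edgeR, adjusted p = 0.326). Of the 19 identifiers tested of genes with known natural strain alleles, with *Nnt* under both of its own, 1 was called (5.26%, against 7.3% of all genes), *Nnt* as ENSMUSG00000116207.

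The position of the parents was examined over all genes with calls from a fit that left out C57BL/6J, DBA/2J and C57BLKS/J, a strain of largely C57BL/6J and partly DBA/2J origin (8.7% of its genes called). C57BL/6J lay on the BXD side of the midpoint between the panel means in 74.3% of 1584 called genes, against 59.4% of all 18284 genes. For DBA/2J the shares were 53.5% and 48.3%, and for C57BLKS/J 55.2% and 45.9%. At least 1 parent lay on the BXD side in 88.9% of called genes (79.7% of all), both did in 38.9% (28% of all), and neither did in 11.1% (20.3% of all). The other recombinant panels derive from a C57BL/6 strain and another partner, A/J for AXB/BXA, C3H/HeJ for BXH and a BALB/c strain for CXB, and were placed by the mean of their strains. AXB/BXA strains lay on the BXD side in 64.3% of called and 54.9% of all genes, CXB strains in 59.8% and 54%, and BXH strains in 50.3% and 46.7%.

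**Figure D3:**
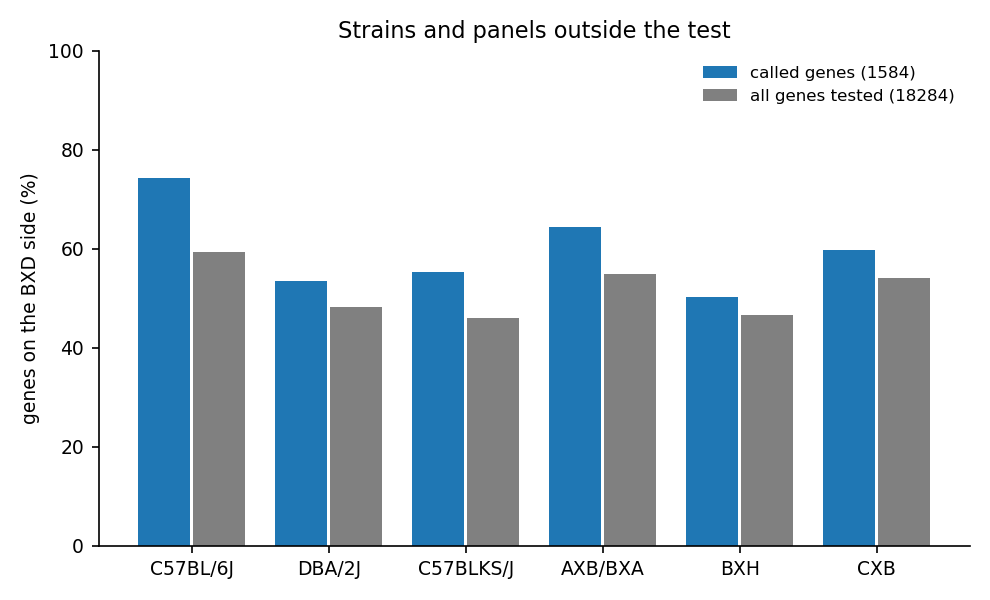
Share of genes, in percent, at which a strain or the mean of another recombinant panel lay on the BXD side of the midpoint between the BXD and classical means, for the 1584 genes called without C57BL/6J, DBA/2J and C57BLKS/J (blue) and for all 18284 genes (grey). C57BL/6J has the highest share of called genes, 74.3%, and BXH the lowest, 50.3%; each blue bar is above the grey bar beside it.

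The BXD strains also varied less among themselves. The median over genes of the SD between strains of log2 CPM was 0.453 in BXD females and 0.476 in classical females, and 0.409 and 0.452 in males. The classical strains had the larger SD in 60.3% of genes in females and 62.5% in males. The SD at the 90th percentile of genes was 1.14 against 1.27 in females and 1.13 against 1.28 in males. These are descriptions without a test.

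Genes with a panel difference lay near each other somewhat more often than genes in general. The next tested gene on the chromosome was also called for 151 of 1314 called genes, or 11.5%, against 7.3% of all genes, and 76.8% of these pairs had the same direction. Of all calls 43.5% were higher, and the share of like direction over all neighbouring genes is not given. The highest number of calls in a window of 1 Mb was 8. On chromosome 15, from 76 Mb on, 8 of 50 genes were called and all of them were lower, among them *Scrib*, a regulator of cell polarity (log2FC -0.18), and *Adck5* (log2FC -0.45). On chromosome 17, within the histocompatibility complex, 7 of 25 genes from 36 Mb on were called, 6 of them lower, with *H2-T3* at a log2FC of -2.62 and *H2-T10* at -0.90. *H2-T3* was near the limit of detection, with medians of 0.137 CPM in the BXD and 0.379 CPM in the classical strains. On chromosome 2 from 155 Mb on, 8 of 23 genes were called in both directions, with *Ahcy*, which breaks down S-adenosylhomocysteine, at a log2FC of 0.94. These windows were picked for their counts and are a description.

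Genes called both in females alone and in males alone nearly all had the same direction. In females 321 genes were higher and 404 lower of 17072 tested (4.25%), and in males 292 were higher and 444 lower of 16568 (4.44%). Of the 16418 genes tested in both sexes, 236 were called in both, which is 34.9% of the female and 32.5% of the male calls, and 232 of these had the same sign. Of the 1162 genes called over both sexes and tested in each, 1158 had the same sign in females and males. These calls rest on the summed libraries of both sexes, so like signs were favoured in advance. The difference of the panel contrast between the sexes, tested within the 45 strains with both, was called for 0 of 17778 genes with edgeR's quasi-likelihood test, and 956 genes (5.38%) had an unadjusted p under 0.05. DESeq2 called 7 and edgeR with each library as a unit called 9. The lowest adjusted p in edgeR was 0.12, for *Zfp990*, whose log2FC was -3.85 in females and -2.53 in males.

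**Figure D4:**
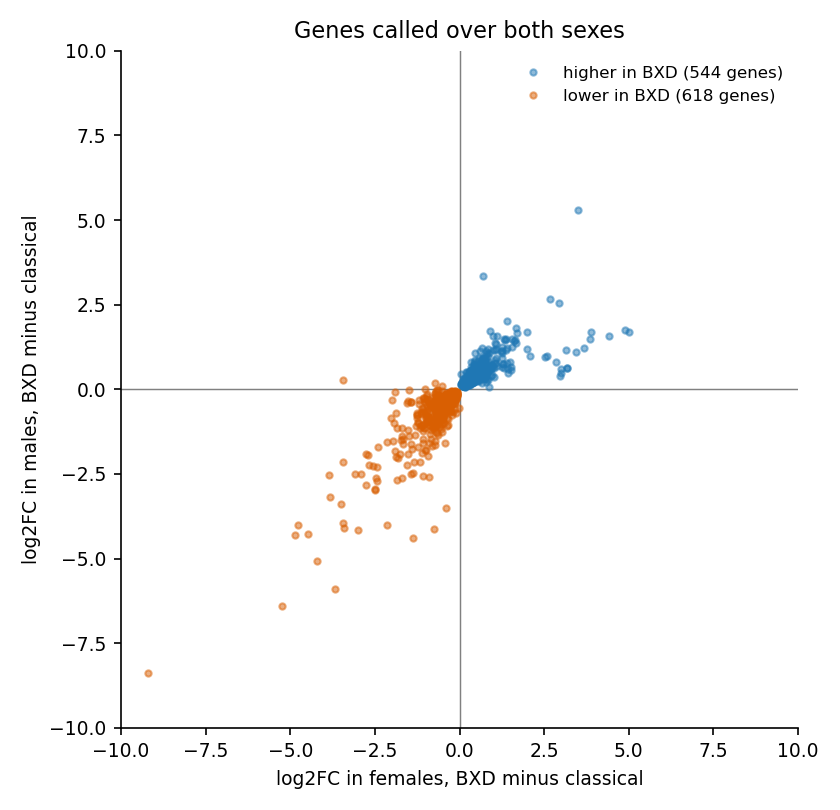
log2FC (BXD minus classical) in females on the x axis and in males on the y axis for the 1162 genes called over both sexes and tested in each, with genes higher in BXD strains in blue (544) and lower in orange (618). Of these, 1158 have the same sign in both sexes; the points rest on the same strains as the calls and are a description.

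In 11 lists of metabolic genes (lipogenesis, sterol synthesis, lipolysis, fatty acid uptake and oxidation, insulin signalling, thermogenesis, nuclear oxidative phosphorylation and others), 3 of 209 genes tested were called higher and 2 lower, or 2.39% against 7.3% of all genes, and the median log2FC was 0.02. The genes called were *Ndufc2*, *Ndufs5*, *Pik3ca*, *Fads2* and *Srebf1*, and the last 2 were those of 17 lipogenesis genes that were called (11.8%). Nuclear subunits of complex I (36) and of complexes II to V (38) are among the 209 genes, and no test of the lists against other genes was run. *Fads2*, a desaturase of polyunsaturated fatty acids, was at 9.49, 21.6 and 47.2 CPM in the lowest, median and highest BXD strain and at 10.9, 29.6 and 63.7 CPM in the classical strains (log2FC -0.45 ± 0.14, SE; edgeR, adjusted p = 0.0421). *Pik3ca*, the catalytic subunit of phosphoinositide 3-kinase, was at 89.3, 101.8 and 126.9 CPM and at 83, 96.4 and 131.1 CPM, with a log2FC of 0.10 ± 0.03 (SE; edgeR, adjusted p = 0.0418). Both calls were lost when certain single strains were left out, that of *Fads2* for 25 and that of *Pik3ca* for 11 of the 62 strains.

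In a list of futile cycle genes, 3 of 17 tested were called higher, or 17.6% against 7.3% of all genes: *Gamt*, *Ryr1* and *Atp2a1*. Most of the list is named in the text of the study, but *Ryr1*, *Slc25a4* and *Slc25a5* are not. *Gamt*, which makes creatine, was at 6.48, 13.8 and 23.4 CPM in the BXD strains and at 3.11, 10.7 and 21.8 CPM in the classical strains (log2FC 0.45 ± 0.15, SE; edgeR, adjusted p = 0.0461), and the call was lost without 29 of the 62 strains in turn. *Ryr2*, a calcium release channel of the heart and other tissues, was at 1.27, 6.05 and 15 CPM in the BXD strains and at 1.65, 9.71 and 24.9 CPM in the classical strains, and its log2FC of -0.71 ± 0.24 was not called (SE; edgeR, adjusted p = 0.0561). It was called in males alone (edgeR, adjusted p = 0.0434) and without the libraries with muscle genes above 100 CPM (edgeR, adjusted p = 0.0381). Without those libraries, 1 gene of the list was called higher and 1 lower. The lipases *Lipe* (log2FC 0.03 ± 0.09), *Pnpla2* (-0.05 ± 0.10) and *Mgll* (-0.06 ± 0.12) and the phosphatase *Alpl* (-0.04 ± 0.11) were not called (SE; edgeR, adjusted p of 0.802 to 0.873). *Ucp1*, the uncoupling protein of brown and beige fat, was at 0, 9.31 and 1357 CPM in the BXD strains and at 0.0821, 29.4 and 1002 CPM in the classical strains, and its log2FC of -0.85 ± 0.73 was not called (SE; edgeR, adjusted p = 0.511). In males alone it was -2.54 ± 0.69 (SE; edgeR, adjusted p = 0.0202) and in females alone 0.26 ± 0.92 (SE; edgeR, adjusted p = 0.902), and the difference between the sexes was not called (edgeR, adjusted p = 1).

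*Atp2a1*, the calcium pump of fast muscle, and *Ryr1*, the muscle calcium release channel, belong with the skeletal muscle genes, and their calls rested on a single library. The 12 muscle genes summed to 25552 CPM in the BXD79/RwwJ female and to 1477 CPM in the next library, the BXD11/TyJ male, against medians of 24.7 CPM in BXD and 20.8 CPM in classical libraries. *Atp2a1* was at 0, 0.221 and 2407 CPM in the lowest, median and highest BXD strain and at 0.0163, 0.359 and 96.5 CPM in the classical strains (log2FC 4.12 ± 1.22, SE; edgeR, adjusted p = 0.0275). Without BXD79/RwwJ it was 1.07 (edgeR, adjusted p = 0.484). *Ryr1* had a log2FC of 1.90 ± 0.56 (SE; edgeR, adjusted p = 0.0256) and lost its call without that strain (edgeR, adjusted p = 0.614). All 10 genes with the largest log2FC that were named, *Myh4*, *Atp2a1*, *Actn3*, *Pvalb*, *Tnnt3*, *Ckm*, *Tnnc2*, *Tnni2*, *Mybpc2* and *Mylpf*, are muscle genes whose highest BXD strain was BXD79/RwwJ and whose calls were lost without it. Of the 12 muscle genes on the list, 8 were called higher, and without BXD79/RwwJ 1 was called, *Myh2* with a lower level (log2FC -1.48, edgeR, adjusted p = 0.0367). A sum above 100 CPM was found in 9 of 64 BXD and 6 of 43 classical libraries. Without these 15 libraries *Pvalb*, a calcium buffer of fast muscle, was the list's only call (log2FC 2.39, edgeR, adjusted p = 0.000235), and 861 genes were higher and 1089 lower in all.

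**Figure D5:**
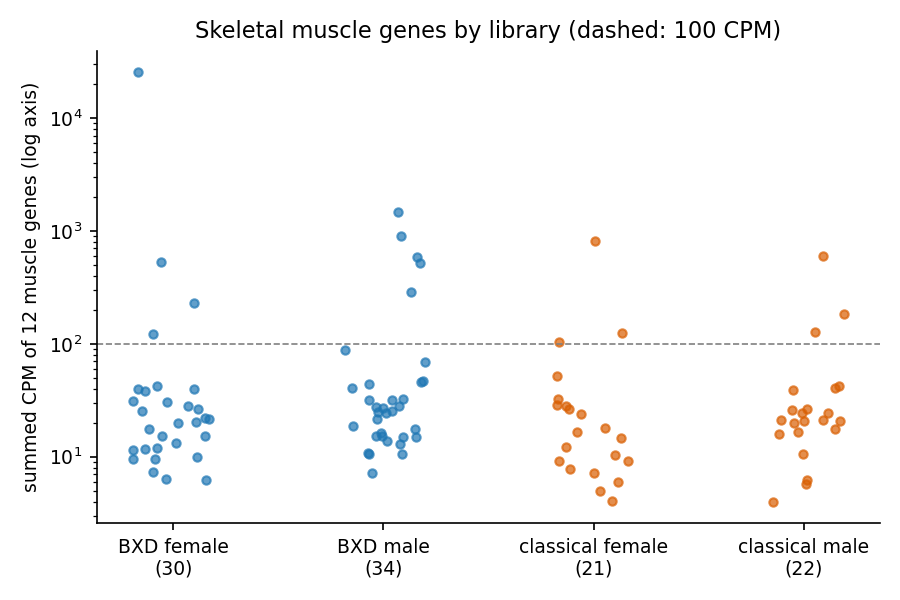
Summed CPM of 12 skeletal muscle genes in each library on a logarithmic axis, by panel and sex, with the number of libraries in brackets and a dashed line at 100 CPM. The BXD79/RwwJ female stands at 25552 CPM, all other libraries at or below 1477 CPM, and 9 BXD and 6 classical libraries lie above the line.

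In the immune lists, 5 of 49 interferon-stimulated genes were called and all were higher in the BXD strains, or 10.2% against 7.3% of all genes: *Gbp6*, *Gbp2*, *Gbp3*, *Irgm2* and *Rsad2*. All but *Rsad2*, an antiviral enzyme (log2FC 0.78 ± 0.15, SE; edgeR, adjusted p = 0.000408), are GTPases that act against pathogens inside cells. *Gbp6* was at 52.8, 91.1 and 159 CPM in the lowest, median and highest BXD strain and at 12.6, 48.8 and 104.8 CPM in the classical strains, and C57BL/6J (91.2 CPM) and DBA/2J (80.4 CPM) were inside the BXD range. A total of 14 classical strains were below all BXD strains. *Irf7* (log2FC 0.03 ± 0.16) and *Isg15* (0.13 ± 0.16), which respond widely to interferon, were not called. A further guanylate binding protein outside this count, *Gbp2b*, was lower, at 0.423, 3.59 and 124.7 CPM against 1.5, 23.6 and 78.2 CPM (log2FC -1.41 ± 0.44, SE; edgeR, adjusted p = 0.0388), and AXB/BXA strains, outside the test, had a median of 71.7 CPM. This call was lost without 7 strains in turn (edgeR, adjusted p = 0.0691 without I/LnJ) and was not made in females alone (edgeR, adjusted p = 0.191). Of 33 genes of histocompatibility and antigen presentation, 3 were called (9.09%) and all were lower, *H2-T3*, *H2-T10* and *H2-Q1*, none of which is a classical presenting molecule, while the median log2FC of the list was 0.19. *H2-T3* had a mean of only 0.673 CPM.

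In 9 lists of markers of other cell types and of matrix genes, 3 genes were called, *Pdgfra*, *Spp1* and *Wfdc18*, all lower. This is 2.29% of the genes tested in these lists, against 7.3% of all genes, and the median log2FC of the lists was -0.03. In whole tissue, fewer cells of a type and less RNA per cell cannot be told apart. *Pdgfra*, the receptor that marks adipose progenitors, was at 47.4, 77.9 and 127.9 CPM in the lowest, median and highest BXD strain and at 63.1, 98.7 and 138.002 CPM in the classical strains (log2FC -0.31 ± 0.10, SE; edgeR, adjusted p = 0.0394), and lost its call without 17 of 62 strains in turn. It was called alone of 12 progenitor and fibroblast genes (8.33%), whose median log2FC was positive, at 0.11. *Spp1*, osteopontin, which lipid-associated macrophages and epithelia such as that of the mammary gland can make, was at 1.81, 5.45 and 292 CPM in the BXD strains and at 2.18, 18.5 and 336 CPM in the classical strains, and above 10 CPM in 9 of 38 and 13 of 24 strains. Its log2FC of -1.59 ± 0.49 (SE; edgeR, adjusted p = 0.0351) was not called without SJL/J (edgeR, adjusted p = 0.165), and the other 22 macrophage genes were not called. Without the 15 libraries with muscle genes above 100 CPM, the log2FC of *Spp1* was -2.65 (edgeR, adjusted p = 1.21e-05). These libraries include the female of BXD56/RwwJ, the BXD strain with the most *Spp1*. The log2FC of *Spp1* was -1.90 in females alone (edgeR, adjusted p = 0.0869) and -0.09 in males alone (edgeR, adjusted p = 0.921). This difference between the sexes in *Spp1* was not called by edgeR (adjusted p = 0.836) but was by DESeq2 (adjusted p = 0.00817), which also called the caseins *Csn1s1*, *Csn1s2a* and *Csn3*, milk proteins of the mammary epithelium. The part of that epithelium in the *Spp1* values was not tested.

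*Wfdc18*, a secreted protein of the mammary gland, was at 0.03, 5.53 and 69.1 CPM in the BXD strains and at 0.127, 14.7 and 269 CPM in the classical strains (log2FC -1.82 ± 0.49, SE; edgeR, adjusted p = 0.0145). The 9 mammary epithelial markers, *Wfdc18* included, were summed in single libraries, females and males together. The sums were 0.46, 22.9 and 1402 CPM in the lowest, median and highest BXD library and 0.468, 172 and 2211 CPM in the classical libraries. These medians mix the sexes and do not measure a panel difference in epithelium, and sums within each sex are not given. In females alone the log2FC of *Wfdc18* was -1.60 ± 0.49 (SE; edgeR, adjusted p = 0.0464), and in males alone it was not tested. All 9 markers had a negative log2FC over both sexes, from -1.82 to -0.50, and *Wfdc18* alone was called. Without the 15 libraries with muscle genes above 100 CPM, 4 of the 9 were called, all lower. *Gjb2*, a gap junction protein of epithelia, was at 0.25, 1.58 and 45.8 CPM against 0.104, 6.21 and 90.5 CPM, with a log2FC of -1.78 ± 0.52 (SE; edgeR, adjusted p = 0.0235) that was not called without SWR/J (edgeR, adjusted p = 0.0642). *Chil1*, a secreted chitinase-like protein, was at 0, 8.32 and 73.8 CPM against 0, 30.1 and 104.1 CPM (log2FC -1.49 ± 0.42, SE; edgeR, adjusted p = 0.0188). *Lcn2*, an iron-scavenging acute phase protein, was at 0.827, 18.3 and 112.3 CPM against 1.25, 42.3 and 107.7 CPM (log2FC -0.90 ± 0.29, SE; edgeR, adjusted p = 0.0433), and lost the call without 27 of 62 strains in turn. The part of the epithelial content in these differences was not tested. The 16 markers of T and B lymphocytes summed to medians of 40.6 CPM over the BXD and 77.6 CPM over the classical libraries. Single libraries reached 2677 and 2119 CPM, and none of the markers was called.

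In several of the remaining lists few genes were called. *Clock*, a core activator of the circadian clock, was called alone of 19 clock genes (5.26%, against 7.3% of all genes), at 66.5, 100.7 and 132.995 CPM in the lowest, median and highest BXD strain and at 49.3, 79.9 and 122.2 CPM in the classical strains (log2FC 0.22 ± 0.07, SE; edgeR, adjusted p = 0.0446), and it lost the call without 23 of 62 strains in turn. *Nr3c1*, the glucocorticoid receptor, was at 161, 207 and 261 CPM against 128.04, 184 and 239 CPM (log2FC 0.19 ± 0.05, SE; edgeR, adjusted p = 0.013), and was called alone of 12 glucocorticoid response genes (8.33%). *Akr1c14*, a steroid and aldehyde reductase, was at 3.91, 10.2 and 28.7 CPM against 4.25, 15.3 and 185 CPM, the latter in NZW/LacJ (log2FC -0.82 ± 0.23, SE; edgeR, adjusted p = 0.0194). Of the 28 glutathione and aldehyde enzymes tested with it, 7.14% were called, and the other call, *Gstm6*, was higher (log2FC 0.89 ± 0.24, SE; edgeR, adjusted p = 0.0145). *Socs3*, which restrains cytokine signalling, was at 4.06, 9.55 and 16.8 CPM against 5.41, 11.3 and 44.1 CPM (log2FC -0.45 ± 0.15, SE; edgeR, adjusted p = 0.0458), and lost the call without 31 of 62 strains in turn. In its list of 20 immediate early genes 10% were called, and the other call, *Fosb*, was higher (log2FC 0.91 ± 0.22, SE; edgeR, adjusted p = 0.00674).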

How the data were processed

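The series holds stranded, paired-end RNA-seq of mouse iWAT. The authors quantified reads with kallisto (version 0.46.1 in the submitters' processing notes) on the Ensembl release 97 transcriptome of GRCm38/mm10 and used tximport for gene sums. The estimated counts as deposited, which were not normalized between libraries, cover 36558 genes, of which 35856 were named through GENCODE M21. kallisto splits reads between near-identical transcripts, and 30.3% of the deposited counts are not whole. The deposited TPM values, which the authors scaled for length and library total, entered only an alternative.

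Estimated counts were rounded, summed per strain, filtered with filterByExpr and scaled by TMM. They were tested with edgeR 4.0.16 (R 4.3.3) in the model ~ female share + panel with the strain as the replicate, since the libraries of a strain share its genome. P-values measure the spread between strains and treat them as independent, although all BXD strains descend from the same parents and the labels give no further replicates. The 3 libraries whose mouse numbers the selection rule lists were left out. Each sex was also tested alone, and the sex by panel interaction was tested within strains. The SE is the absolute log2FC divided by the root of its F. Totals and mitochondrial shares were compared with two-sided permutation tests with 100000 resamples (scipy 1.17.1). Copies are genes that share over 50% of their 31-base stretches, from the GENCODE transcripts.

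The members, the 32 gene lists (587 genes) and the rules were chosen with earlier results of these data known. Named genes are protein-coding genes with a symbol, a call and a mean of at least 5 CPM: the 10 with the largest and the 10 with the smallest log2FC, the 5 with the smallest p per direction among genes called in both sexes alone, the called list member with the largest change in each direction, and every tested futile cycle gene and gene with a known natural allele. On simulated counts of 18146 genes, 72 of 99 genes changed by 0.5 and 83 of 100 changed by 1 on the log2 scale were called in the comparison of BXD and classical strains, and 8 of 17947 unchanged genes were called, which is 4.91% of the calls. The simulated strains were independent, without relatedness, allele classes, reads split between copies or outlying libraries. These shares therefore need not hold for the real data. Alternatives used limma 3.58.1, DESeq2 1.42.0, other scalings and filters, subsets of strains and each strain left out. Python 3.11.15 with numpy 2.4.6, pandas 2.3.3 and matplotlib 3.10.9 served the other steps.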

Additional observations from a re-analysis of the deposited data

How the results depend on the processing

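Counts of genes higher and lower in the BXD strains, 581 and 754, moved by more than 1.5 times with each library as a unit (1318 and 1835), in females alone (321 and 404), in males alone (292 and 444) and with mouse number as a further term (357 and 454). The higher count also moved with limma-voom and strain as a random block (899), on log2(TPM + 1) (263), on log2(TPM + 0.1) (281) and with TyJ strains only (943), and the lower count without a filter (1443). Single strains left out in turn gave 432 to 782 higher and 561 to 904 lower genes, the lowest of both without SWR/J. Of the 1335 calls, 1303 were also made by DESeq2, 766 with the mouse number term, 748 with TyJ strains only and 622 with RwwJ strains only. The interaction with sex gave 7 calls with DESeq2 and 9 with each library as a unit in place of 0.

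Among called genes of at least 5 CPM, C57BL/6J lay on the BXD side in 78.5%, at least 1 parent in 91%, AXB/BXA in 61.1% and BXH in 46.4%. The classical SD was larger in 62.9% of such genes in females, and with library totals in 58.3% of genes in females and 61.5% in males. The log2FC turned with limma-voom for Atp2a1 (-0.25), Actn3 (-0.03) and Tnni2 (-0.13), on log2(TPM + 1) for Pik3ca (-0.10), and on log2(TPM + 0.1) for Myh4 (-0.11), Atp2a1 (-0.20), Ckm (-0.02), Tnni2 (-0.09) and Pik3ca (-0.10). Without the 15 libraries with muscle genes above 100 CPM, a setting added after seeing the data, it turned for Myh4 (-0.92), Atp2a1 (-0.21), Actn3 (-0.15), Tnni2 (-0.11) and Mylpf (-0.02). Leaving out the libraries with over 5% of processed pseudogene counts (620 and 710) and summing copies (558 and 675), also added after seeing the data, kept both counts within 1.5 times. The causes were not tested.

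No paired analysis was possible because each strain belongs to 1 panel, and the replicate numbers only name the samples. The labels give no batch, so a batch that runs with the panels cannot be told apart from them. Genes under about 0.1 CPM are at the floor, and strains with 1 library rest on 1 mouse.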

Other observations

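Calls were unevenly spread over gene types. Of 868 processed pseudogenes tested, 22 were higher and 69 lower in the BXD strains (10.5%), and of 16554 protein-coding genes 534 were higher and 638 lower (7.08%). Transcribed unprocessed pseudogenes had 10 higher and 9 lower genes (18.6%). In the window of 1 Mb from 147 Mb on chromosome 4, 6 of 15 genes were called, against 7.3% of all genes. They were the zinc finger genes Zfp534 (log2FC -3.27), Zfp985 (-1.15) and Zfp982 (1.02), and Rps19-ps3 (-0.49), Fv1 (0.41) and Plod1 (0.33). Reads of repeated families such as these zinc finger genes can be split among their members. In the window from 37 Mb on chromosome 18, 6 of 52 genes were called, against 7.3% of all genes. All were protocadherin beta genes, 4 higher and 2 lower, from Pcdhb6 at -0.77 to Pcdhb13 at 0.51. Both windows were picked for their counts and are a description.

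The 7 genes that DESeq2 called for a different panel contrast in females and males were all more negative in females. They included the milk caseins Csn1s1 (a difference in log2FC of -4.77 ± 1.02, SE), Csn1s2a (-6.59 ± 1.37) and Csn3 (-2.76 ± 0.59), with adjusted p of 0.0089, 0.00817 and 0.0089 in DESeq2 and 0.846, 0.986 and 0.846 with edgeR's quasi-likelihood test.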
